A study of Mus musculus with 32 samples.

Results

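The 37 genes described here encode lysosomal glycosidases, lipases, sulfatases and other hydrolases, with the small activator proteins and the modifying enzyme that several of them need. They were chosen by name for their known function, with earlier results of these data known. Of the 9312 genes tested in experiment 1, 32 belong to this set, as do 33 of the 9356 genes tested in experiment 2. RNA was profiled on Illumina bead arrays in bone marrow macrophages (BMM) of DBA/2 and AKR mice, all of them ApoE-/-, 16 weeks old and fed chow. ApoE-/- mice lack apolipoprotein E, a ligand for the clearance of plasma lipoproteins, so all groups share this deletion and no ApoE-sufficient cells were included. Macrophages were grown from femoral marrow with L-cell conditioned medium as a source of M-CSF and were incubated for 24 h with or without acetylated LDL (AcLDL), a modified lipoprotein that scavenger receptors take up and that fills macrophages with cholesterol. Experiment 1 used cells of female mice and 100 µg/ml AcLDL on MouseRef-8 v1 arrays, and experiment 2 used cells of male mice and 50 µg/ml AcLDL on Ref-8 v2 arrays. Each experiment held loaded DBA/2, unloaded DBA/2, loaded AKR and unloaded AKR macrophages, with 4 arrays per group and 32 arrays in all. Sex, dose, AcLDL preparation and array version differ together between the experiments and cannot be told apart, and the values of the experiments were normalised separately, so no level is set across them. Whether the 4 arrays of a group stand for different mice is not given in the sources used here. The p-values rest only on the spread between cultures within groups, in a common estimate over the 4 groups of an experiment, and that spread may be technical.

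Lysosomal hydrolases are made in the endoplasmic reticulum, tagged in the Golgi with mannose 6-phosphate, delivered to the lysosome by receptors for that tag and active at its acid pH. Each cuts 1 kind of bond, and inherited loss of a single enzyme usually leads to storage of its substrate, as in Fabry disease, the mucopolysaccharidoses and cholesteryl ester storage disease. In macrophages the AcLDL particle reaches the lysosome whole, where acid lipase frees cholesterol from its esters and proteases digest its protein. Many lysosomal genes are reported to carry the CLEAR element, a palindromic E-box to which the MiT/TFE factors, among them TFEB, can bind.

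By role, 9 of the genes act in glycosaminoglycan breakdown (Hyal1, Gusb, Idua, Ids, Sgsh, Naglu, Hgsnat, Galns and Arsb) and 9 in sphingolipid and glycolipid breakdown (Gla, Glb1, Hexa, Gm2a, Psap, Arsa, Galc, Asah1 and Smpd1). A further 6 act on oligosaccharides or glycogen (Gaa, Manba, Man2b1, Fuca1, Neu1 and Aga), 4 are lipases or thioesterases (Lipa, Pla2g15, Ppt1 and Ppt2) and 5 are peptidases or a thiol reductase (Tpp1, Lgmn, Scpep1, Ctsa and Ifi30). The last 4 are the phosphatases Acp2 and Acp5, the nuclease Dnase2a and Sumf1, which activates the sulfatases. In experiment 1, 35 genes had a probe matched by name and 32 had one above the low-value filter, a highest group mean over the median of the table. Acp5, Aga and Scpep1 stayed below it, and no probe was matched to Ids or Acp2. In experiment 2, 36 genes had a matched probe and 33 passed, with Aga, Scpep1 and Sumf1 below the filter and none matched to Hgsnat. The paper lists Acp2 in experiment 1 and Hgsnat in experiment 2 among its transcripts lower with loading. Those arrays thus measured these genes through probes that were not matched here. A few genes passed through some groups only. Fuca1 missed the filter value in loaded AKR macrophages of experiment 1 and passed in experiment 2 through unloaded DBA/2 macrophages alone. By the labels Acp5 passed in experiment 2 through unloaded AKR macrophages alone. Without 2 AKR arrays described below, its mean in loaded AKR macrophages (4.289) also passed the filter value (4.288).

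Promoter windows of 250 bases before to 50 bases after the start site were taken from RefSeq (GRCm38.p6), in which 33 of the 37 genes had 42 windows; Aga, Hgsnat, Galns and Asah1 were not matched. The E-box core CACGTG, which reads the same on both strands, was present for 10 of the 33 genes (30.3%), against 2187 of all 27025 genes (8.09%). Its extension TCACGTGA, the CLEAR core, was present for 4 of 33 genes (12.1%), against 304 of 27025 (1.12%). The whole windows of the hyaluronidase gene Hyal1, the acid lipase gene Lipa and the α-galactosidase gene Gla are shown because these are the 3 genes of greatest rise among those that loading raised in AKR macrophages of both experiments, in experiment 2 once 2 arrays were left out. They lie at chr9:107576700-107576999 (plus strand), chr19:34527425-34527724 (minus strand) and chrX:134600956-134601255 (minus strand), each 5′ to 3′ on the strand of its gene, with the CLEAR core in capitals.
Hyal1: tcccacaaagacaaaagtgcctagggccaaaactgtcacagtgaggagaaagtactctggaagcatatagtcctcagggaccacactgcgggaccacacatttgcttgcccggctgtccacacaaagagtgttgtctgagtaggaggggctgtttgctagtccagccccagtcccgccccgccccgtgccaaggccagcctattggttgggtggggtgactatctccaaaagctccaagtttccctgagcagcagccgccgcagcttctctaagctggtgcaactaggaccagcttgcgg
Lipa: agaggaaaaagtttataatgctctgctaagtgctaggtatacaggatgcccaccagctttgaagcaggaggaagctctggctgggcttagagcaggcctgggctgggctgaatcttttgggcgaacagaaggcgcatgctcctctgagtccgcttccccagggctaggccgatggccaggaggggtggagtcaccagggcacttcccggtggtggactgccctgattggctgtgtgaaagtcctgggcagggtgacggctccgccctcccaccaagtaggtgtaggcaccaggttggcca
Gla: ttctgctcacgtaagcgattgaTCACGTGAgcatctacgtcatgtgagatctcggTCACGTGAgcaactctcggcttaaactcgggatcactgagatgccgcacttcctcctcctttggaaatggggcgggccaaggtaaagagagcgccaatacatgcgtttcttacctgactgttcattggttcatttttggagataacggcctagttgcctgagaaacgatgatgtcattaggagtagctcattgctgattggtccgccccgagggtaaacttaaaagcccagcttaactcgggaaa
The Gla window held 2 copies of the CLEAR core, and the Hyal1 and Lipa windows held neither motif.

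For the other genes with a match, 36 bases around the motif show how the flanks differ, with the core of each in capitals. The sites of Ctsa (chr2:164833746-164833781 and chr2:164833763-164833798, plus strand), Ifi30 (chr8:70766839-70766874, minus strand) and Sumf1 (chr6:108185574-108185609, minus strand) have the full CLEAR core. Those of Naglu (chr11:101070006-101070041, plus strand), Sgsh (chr11:119355519-119355554, minus strand), Glb1 (chr9:114401015-114401050, plus strand), Lgmn (chr12:102439121-102439156, minus strand), Arsa (chr15:89477420-89477455, minus strand) and Gaa (chr11:119267808-119267843, plus strand) have the E-box core with other flanking bases.
Ctsa, first site: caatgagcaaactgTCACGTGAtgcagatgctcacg
Ctsa, next site: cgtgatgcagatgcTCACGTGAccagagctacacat
Ifi30: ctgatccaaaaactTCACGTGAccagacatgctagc
Sumf1: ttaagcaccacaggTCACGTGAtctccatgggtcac
Naglu: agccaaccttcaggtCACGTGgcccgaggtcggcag
Sgsh: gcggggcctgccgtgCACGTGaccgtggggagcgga
Glb1: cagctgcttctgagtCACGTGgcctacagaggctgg
Lgmn: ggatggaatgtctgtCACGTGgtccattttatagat
Arsa: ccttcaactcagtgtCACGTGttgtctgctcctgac
Gaa: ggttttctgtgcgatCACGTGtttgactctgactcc
A match is a run of letters and not a measured binding site. With loading of AKR macrophages in experiment 1, where 16.2% of all genes rose and 15.1% fell, 2 of the 10 tested genes with a match rose and 1 fell (median log2 difference 0.00), and 6 of the 19 tested genes with a window but no match rose and 2 fell (median 0.03). In DBA/2 macrophages of experiment 1 (all genes, 6.42% and 6.4%), 1 of 10 with a match rose and 0 fell, and 2 of 19 without one rose and 2 fell. In AKR macrophages of experiment 2, once 2 arrays were left out (all genes, 10.1% and 9.63%), 1 of 9 with a match rose and 0 fell, and 3 of 22 without one rose and 6 fell, while with all arrays none was called.

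The 2 arrays that stand apart lie in experiment 2. Unloaded AKR replicate 1 and loaded AKR replicate 2 correlated with the rest of their own group at 0.9684 and 0.9714 and with the other AKR group at 0.9804 in both cases, while every other array of experiment 2 reached 0.9781 to 0.9843 with its own group and those of experiment 1 reached 0.9927 to 0.9946. Whether the labels of these 2 arrays were exchanged was not tested. If they were, every AKR group mean and AKR contrast of experiment 2 by the labels would mix loaded and unloaded cells. Contrasts of experiment 2 are therefore given by the labels and without these 2 arrays, an exclusion chosen with their values known. The macrophage marker list (8 of 8 genes with a probe above the filter in experiment 1) had a summed linear level of 31762 to 33104 in loaded AKR macrophages of experiment 1, against 41654 to 44740 in unloaded AKR macrophages. Of 9 neutrophil markers with a probe, 2 to 3 were above the filter in each group of experiment 1. Elane, Ltf, Mpo, Ngp, Retnlg and S100a9 were below it in all groups. The T and NK cell list had 0 to 1 of 7 markers above it in any group.

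Loading in experiment 1 raised a small set of enzymes in AKR macrophages and lowered another, with no common direction over the 37 genes. Of the 32 genes tested, 8 were higher and 4 lower in loaded than in unloaded AKR macrophages at an adjusted p below 0.01 (limma with Benjamini-Hochberg adjustment over all kept probes), where 16.2% of all genes were higher and 15.1% lower. Their median log2 difference was −0.02 (all genes, 0.01), and the median size was 0.19 (all genes, 0.15).

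Hyal1, the lysosomal hyaluronidase that cleaves hyaluronan into fragments, changed most. Its log2 values were 9.26, 9.34, 9.21 and 9.30 in loaded AKR macrophages, against 6.94, 7.06, 7.11 and 6.97 in unloaded AKR macrophages. All 4 loaded arrays lay more than 2 log2 units above every unloaded one, a difference of 2.26 ± 0.08 (SE) or 4.78-fold (adjusted p = 1.11e-16). Naglu, which removes N-acetylglucosamine from heparan sulfate, had 11.19, 11.18, 11.34 and 11.35 in loaded and 10.62, 10.41, 10.68 and 10.60 in unloaded AKR macrophages. These groups did not overlap either, and the difference was 0.69 ± 0.07 (adjusted p = 2.36e-08). Hgsnat, the membrane acetyltransferase that acts just before Naglu in the same pathway, went the other way, with 9.58, 9.57, 9.52 and 9.57 in loaded and 10.54, 10.63, 10.28 and 10.24 in unloaded AKR macrophages. Every loaded array was lower than every unloaded one, and the difference was −0.86 ± 0.09 (adjusted p = 3.42e-08). Among glycosaminoglycan enzymes as a group, 2 of 8 rose, 1 fell and 5 were not called.

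Lipa, the acid lipase that hydrolyses the cholesteryl esters and triglycerides of lipoproteins in the lysosome, had values of 12.37, 12.36, 12.34 and 12.36 in loaded AKR macrophages, against 11.82, 11.66, 11.42 and 11.30 in unloaded AKR macrophages. The loaded arrays agreed within 0.03 and lay above all unloaded ones, with a difference of 0.81 ± 0.09 or 1.75-fold (adjusted p = 1.75e-07). Ppt1, the palmitoyl-protein thioesterase that removes fatty acids from cysteines, had 9.45, 9.65, 9.47 and 9.35 in loaded and 10.32, 10.17, 10.21 and 10.18 in unloaded AKR macrophages. It fell by 0.74 on the log2 scale (SE 0.07, adjusted p = 1.08e-08), with no overlap. Its homologue Ppt2 fell by 0.32 (SE 0.06, adjusted p = 0.000156), so that 1 of the 4 lipases and thioesterases rose and 2 fell, and Pla2g15, the lysosomal phospholipase A2, was not called.

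Gla, the enzyme that removes terminal α-galactose from globotriaosylceramide, had 7.77, 7.89, 8.02 and 7.61 in loaded and 7.31, 7.003, 7.17 and 7.06 in unloaded AKR macrophages. The groups did not overlap, and Gla rose by 0.69 ± 0.09 (adjusted p = 1.23e-06). Of the sphingolipid enzymes, Psap, the precursor of the saposin activators, was the other one called, by 0.21 ± 0.06 (adjusted p = 0.00768). It stood at ranks 5 to 20 of 24613 probes, where quantile normalisation left only 10 distinct values over 16 arrays. The sialidase Neu1 rose by 0.36 ± 0.07 (adjusted p = 0.000358), the β-mannosidase Manba by 0.30 ± 0.08 (adjusted p = 0.00389) and the acid DNase Dnase2a by 0.30 ± 0.07 (adjusted p = 0.0018). Ifi30, the thiol reductase that unfolds antigens, had 9.72, 9.55, 9.34 and 9.61 in loaded and 9.92, 10.11, 10.18 and 10.11 in unloaded AKR macrophages. All of its loaded arrays were lower, and it fell by 0.52 (SE 0.09, adjusted p = 3.35e-05). The 20 genes not called lay between −0.23 (Smpd1) and 0.22 (Idua). In the same contrast 5 of the 8 macrophage marker genes were lower and 1 was higher. The part of this shift in the hydrolase differences was not tested, and in bulk RNA fewer cells of a type and less RNA per cell cannot be told apart.

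**Figure D1:**
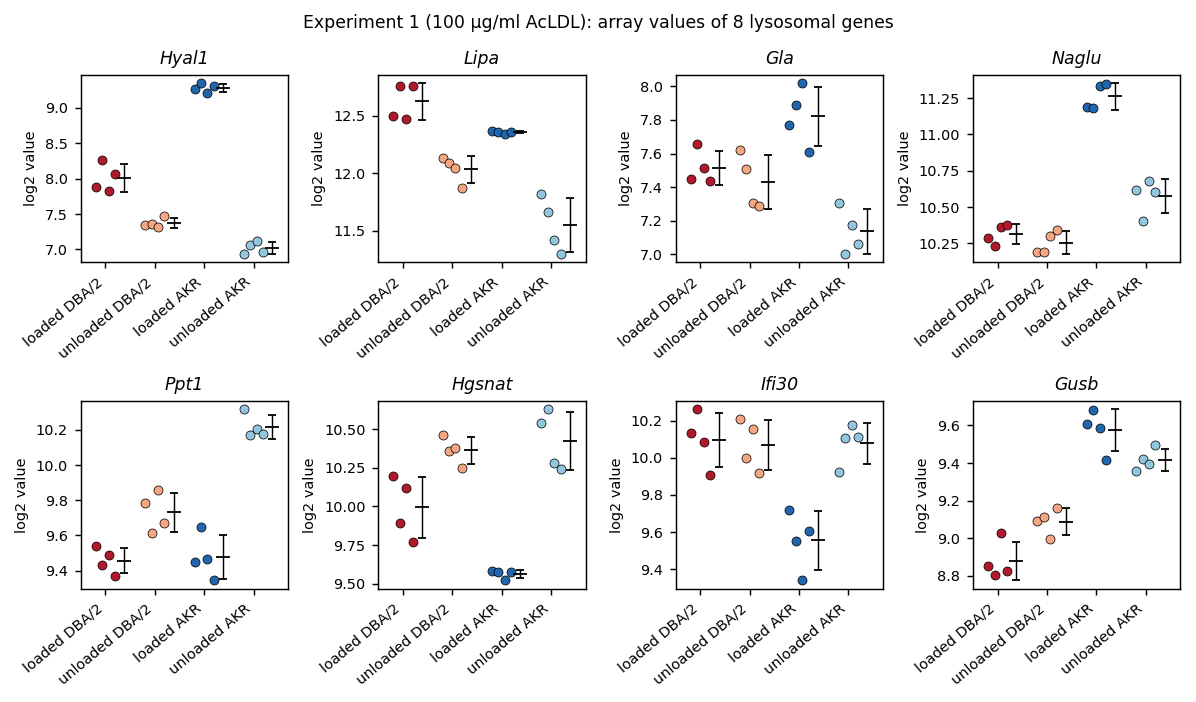
Log2 expression (y axis, normalised array value) of 8 lysosomal genes in experiment 1, in loaded DBA/2, unloaded DBA/2, loaded AKR and unloaded AKR macrophages (x axis). Dots are arrays, dashes and bars are the mean ± SD of 4 arrays. The loaded AKR arrays of Hyal1 sit between 9.21 and 9.34, above all other groups, and those of Hgsnat and Ifi30 sit below the other 3 groups.

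DBA/2 macrophages of experiment 1 changed fewer of these genes. On loading, 3 of the 32 rose and 3 fell, where 6.42% of all genes were higher and 6.4% lower, and the members' median log2 difference was −0.04 (all genes, 0.01). Without unloaded DBA/2 replicate 3 the 6 calls became 3. Hyal1 had 7.88, 8.27, 7.82 and 8.06 in loaded and 7.34, 7.36, 7.31 and 7.47 in unloaded DBA/2 macrophages. It rose by 0.64 ± 0.08 (adjusted p = 2.05e-06). Lipa, at 12.50, 12.76, 12.47 and 12.76 in loaded and 12.13, 12.09, 12.04 and 11.87 in unloaded DBA/2 macrophages, rose by 0.59 ± 0.09 (adjusted p = 5.31e-05). Neither gene's groups overlapped. Hgsnat fell by 0.37 (SE 0.09, adjusted p = 0.00476), Pla2g15 by 0.31 (SE 0.07, adjusted p = 0.00209) and Ppt1 by 0.27 (SE 0.07, adjusted p = 0.00844, lost in 9 of 16 fits with 1 array left out). Ctsa, the protective protein that stabilises the sialidase and β-galactosidase, rose by 0.34 ± 0.08 (adjusted p = 0.0047) on its brighter probe, while its dimmer probe fell by 0.52 (adjusted p = 3.79e-05), so its direction is uncertain. Loaded DBA/2 macrophages had a summed level of the osteoclast list of 4925 to 6482, against 2943 to 3337 in unloaded DBA/2 macrophages, with 4 to 5 of 8 markers above the filter and Atp6v0d2, Calcr and Ocstamp below it. Their neutrophil list summed to 1553 to 2148, against 777 to 809, with 2 to 3 of 9 markers above the filter, and the part of either list in the results was not tested. The 26 genes not called lay between −0.31 (Idua) and 0.27 (Galns).

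The response to loading differed between the strains for 9 of the 32 genes in experiment 1, the interaction being the DBA/2 difference minus the AKR difference. It was positive for 4 and negative for 5, where 7.61% of all genes were positive and 8.2% negative. Hyal1 had the interaction of greatest size of the 32, −1.62 ± 0.11 (adjusted p = 2.18e-10), since its response was 0.64 in DBA/2 and 2.26 in AKR macrophages. Naglu had 10.29, 10.23, 10.36 and 10.38 in loaded and 10.19, 10.19, 10.30 and 10.34 in unloaded DBA/2 macrophages, overlapping groups, and its interaction was −0.62 ± 0.10 (adjusted p = 5.22e-05). Gla had 7.45, 7.66, 7.52 and 7.43 in loaded and 7.62, 7.51, 7.31 and 7.29 in unloaded DBA/2 macrophages, also overlapping, with an interaction of −0.60 ± 0.13 (adjusted p = 0.00113). In experiment 1 these 3 genes thus had a larger rise in AKR cells. Idua, the α-L-iduronidase, had an interaction of −0.53 ± 0.13 (adjusted p = 0.00364) on its brightest probe and 0.00 (adjusted p = 0.985) on its other probe. For Gusb, the β-glucuronidase, it was −0.37 ± 0.10 (adjusted p = 0.00778), a call lost in 12 of 16 fits with 1 array left out.

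The 4 genes that fell with loading in AKR macrophages had positive interactions. Ifi30 had 10.14, 10.26, 10.08 and 9.91 in loaded and 10.21, 10.001, 10.16 and 9.92 in unloaded DBA/2 macrophages. Those groups overlapped, and the interaction was 0.55 ± 0.12 (adjusted p = 0.00196). Hgsnat (0.49 ± 0.13, adjusted p = 0.00627), Ppt1 (0.47 ± 0.10, adjusted p = 0.00164) and Ppt2 (0.37 ± 0.09, adjusted p = 0.00299) completed the set, and the call of Hgsnat was lost in 10 of 16 fits with 1 array left out. For Lipa the interaction was −0.22 ± 0.13, with a 95% confidence interval of −0.49 to 0.06 (adjusted p = 0.259), so a difference in its response was not resolved at this number of arrays.

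**Figure D2:**
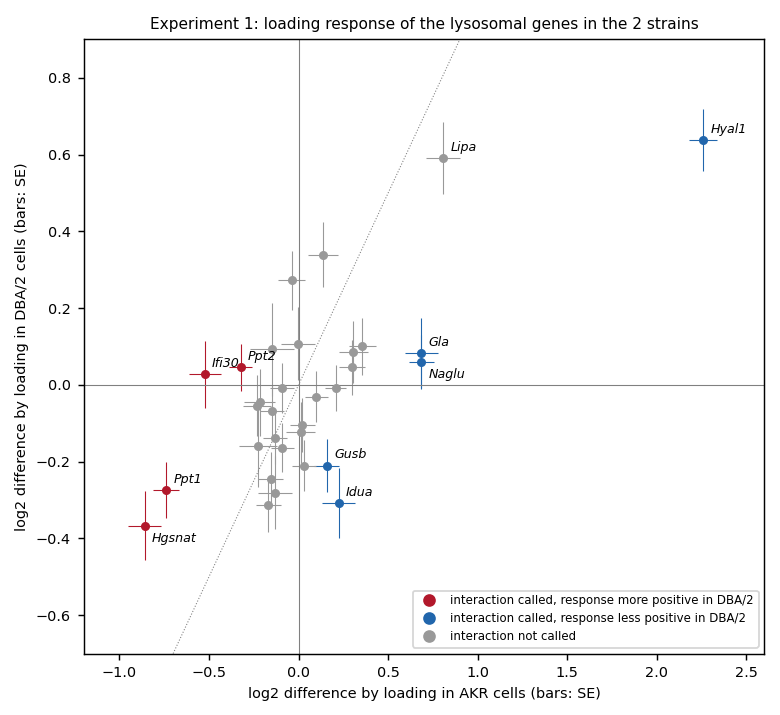
Log2 difference of loaded minus unloaded macrophages in DBA/2 cells (y axis) and in AKR cells (x axis) of experiment 1, 1 point per gene, with bars of ± SE, colours for the interaction call and a dotted line of equal response. Hyal1 lies at 0.64 in DBA/2 and 2.26 in AKR cells, far from the line of equal response, and Lipa at 0.59 and 0.81 lies near it.

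Strain itself was compared in unloaded and in loaded cells. In unloaded macrophages of experiment 1, 2 of the 32 genes were higher and 7 lower in DBA/2 than in AKR cells, where 14.3% of all genes were higher and 13.9% lower (median log2 difference 0.01 for the members and 0.00 for all genes). The osteoclast marker list summed to 2943 to 3337 in unloaded DBA/2 macrophages, against 4461 to 5663 in unloaded AKR macrophages, with 4 to 5 of 8 markers above the filter, and its part in the strain differences was not tested. Lipa was higher by 0.48 (adjusted p = 0.000223) and Hyal1 by 0.35 (adjusted p = 0.00104). The lower ones were Ppt1 (−0.49, adjusted p = 8.68e-06), Ctsa (−0.39, adjusted p = 0.000685), the tripeptidyl peptidase Tpp1 (−0.38, adjusted p = 7.3e-05), the sulfatase Galns (−0.36, adjusted p = 0.000486), Gusb (−0.33, adjusted p = 0.00054), Naglu (−0.32, adjusted p = 0.000777) and the asparaginyl endopeptidase Lgmn (−0.28, adjusted p = 0.00189). The peptidases thus had 3 of 4 tested genes lower in DBA/2 cells, and the sphingolipid and oligosaccharide enzymes had none called. A probe over a base that differs between the strains would also give such a difference, which was not tested.

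In loaded macrophages 5 genes were higher and 10 lower in DBA/2 than in AKR cells, where 15.1% of all genes were higher and 14.6% lower. The median size of the members' log2 differences was 0.24 (all genes, 0.15). Hyal1 was lower, at −1.27 (adjusted p = 1.88e-12), the opposite of its strain difference in unloaded cells. Naglu (−0.95, adjusted p = 5.56e-11), Gusb (−0.70, adjusted p = 1.16e-08), Idua (−0.51, adjusted p = 6.93e-05), Tpp1 (−0.51, adjusted p = 9.47e-07) and Dnase2a (−0.37, adjusted p = 0.000179) followed. Gusb had 8.85, 8.81, 9.03 and 8.83 in loaded DBA/2 macrophages, against 9.61, 9.68, 9.59 and 9.42 in loaded AKR macrophages. Its groups were apart, and its other probe gave −0.72. Galc, Gla, Manba and Asah1 were lower as well, at −0.32 to −0.26. Higher in DBA/2 cells were Ifi30 (0.54, adjusted p = 2.01e-05), Hgsnat (0.43, adjusted p = 0.000435), the sulfatases Arsb (0.41, adjusted p = 0.00328) and Sgsh (0.32, adjusted p = 0.00881), and Ppt2 (0.25, adjusted p = 0.00248). Of the 8 glycosaminoglycan enzymes tested, 3 were higher and 4 lower. In this contrast 6 of the 8 macrophage markers were higher and 1 lower, and their summed level was 41263 to 42367 in loaded DBA/2 macrophages, against 31762 to 33104 in loaded AKR macrophages.

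In experiment 2, loading of AKR macrophages gave no call by the labels, and 10 calls without the 2 arrays. By the labels 0 of 33 genes passed (0% of all genes higher and 0% lower, 1877 probes and 6 members at an unadjusted p below 0.05). Hyal1 had 6.64, 5.67, 6.90 and 6.95 in loaded and 6.92, 5.60, 5.71 and 5.30 in unloaded AKR macrophages, where replicate 2 of the loaded and replicate 1 of the unloaded group are the 2 arrays set aside. These 2 arrays alone make the groups overlap. The difference was 0.66 ± 0.30 (adjusted p = 0.36) by the labels and 1.30 ± 0.15 without them (adjusted p = 9.37e-06). Lipa had 10.89, 9.89, 11.10 and 11.06 in loaded and 11.12, 10.05, 9.80 and 9.87 in unloaded AKR macrophages. The same arrays crossed over, and the difference was 0.53 ± 0.27 (adjusted p = 0.396) by the labels and 1.11 ± 0.13 without them (adjusted p = 9.37e-06).

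Without the 2 arrays, 4 of 33 genes rose and 6 fell with loading in AKR macrophages, where 10.1% of all genes were higher and 9.63% lower. Beside Hyal1 and Lipa, Gla (0.65 ± 0.16, adjusted p = 0.00716) and Dnase2a (0.56 ± 0.12, adjusted p = 0.00167) rose. By the labels these 2 genes gave 0.30 and 0.25, both with an adjusted p of 0.501. Ids, the iduronate 2-sulfatase, had 7.87, 8.90, 8.01 and 8.06 in loaded and 8.09, 8.80, 8.65 and 9.02 in unloaded AKR macrophages. Leaving out 8.90 and 8.09, the groups were apart and Ids fell by 0.85 (SE 0.11, adjusted p = 2.03e-05). Manba had 8.95, 9.32, 8.99 and 8.84 in loaded and 8.95, 9.54, 9.57 and 9.65 in unloaded AKR macrophages. Without 9.32 and the unloaded 8.95 it fell by 0.66 (SE 0.10, adjusted p = 9.05e-05). Ppt1 fell by 0.57 (SE 0.12, adjusted p = 0.00142), the acid phosphatase Acp2 by 0.55 (SE 0.11, adjusted p = 0.00128), Pla2g15 by 0.44 (SE 0.09, adjusted p = 0.00213) and the α-mannosidase Man2b1 by 0.33 (SE 0.09, adjusted p = 0.00862). By the labels the 6 genes that fell gave −0.43 (Ids), −0.40 (Manba), −0.19 (Ppt1), −0.33 (Acp2), −0.24 (Pla2g15) and −0.14 (Man2b1), with adjusted p from 0.36 to 0.645. The macrophage list summed to 20287 to 24576 in loaded and 22276 to 25173 in unloaded AKR macrophages (20287 to 22712 in loaded cells without the array), and the neutrophil list to 578 to 699 in loaded and 836 to 928 in unloaded AKR macrophages without the 2 arrays. The part of either list in these results was not tested. The members' median log2 difference was −0.16 (all genes, 0.01). Both oligosaccharide enzymes called in this contrast fell, and none of the 4 peptidases was called. The 23 genes not called lay between −0.54 (Sgsh) and 0.38 (Gaa).

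**Figure D3:**
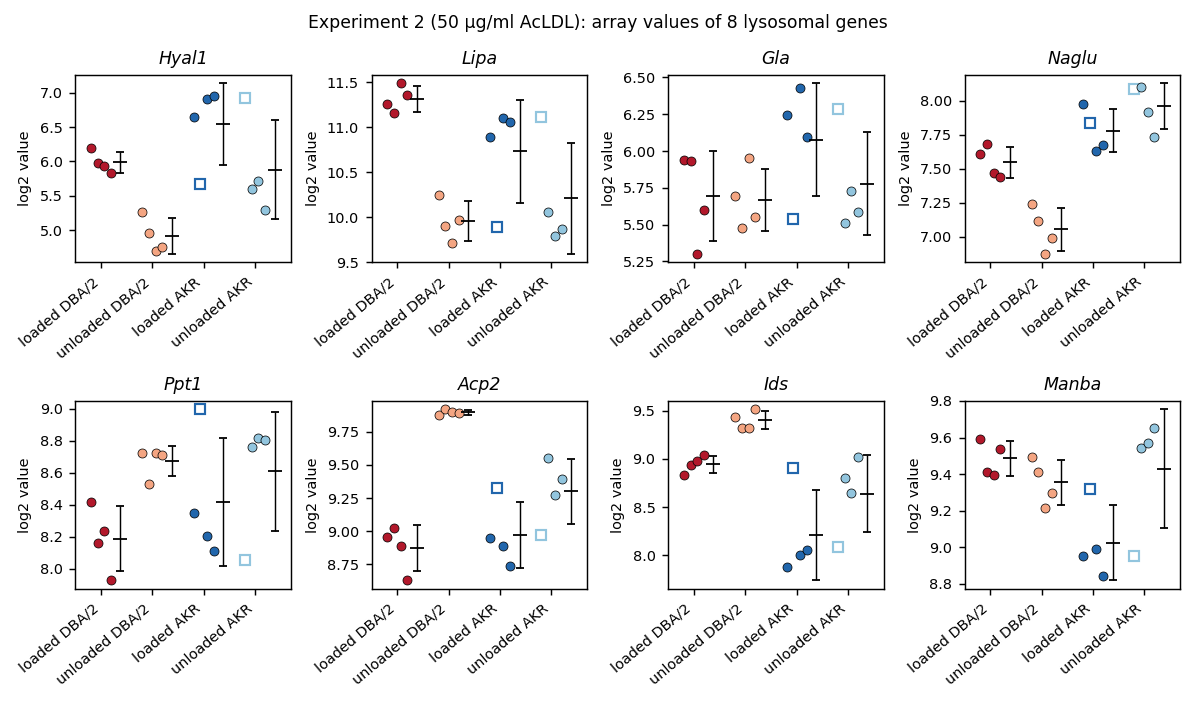
Log2 expression (y axis, normalised array value) of 8 lysosomal genes in experiment 2, groups as on the x axis. Dots are arrays, hollow squares are the 2 arrays set aside, dashes and bars are the mean ± SD of 4 arrays. In Hyal1 and Lipa the hollow square of loaded AKR macrophages (5.67 and 9.89) sits among the unloaded arrays and that of unloaded AKR macrophages (6.92 and 11.12) among the loaded ones.

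Loading of DBA/2 macrophages in experiment 2 does not rest on those arrays for its means, although they enter the common spread. By the labels 3 genes rose and 2 fell (all genes, 4.56% higher and 3.74% lower), and without the 2 arrays 6 rose and 4 fell (all genes, 10.3% higher and 8.64% lower). The 5 calls by the labels became 2 without the low-value filter and 1 to 8 with 1 array left out, 1 of them without unloaded DBA/2 replicate 2 or 3 and 8 without unloaded AKR replicate 1. They were 2 without any single loaded DBA/2 array, 3 without unloaded DBA/2 replicate 1 and 7 without loaded AKR replicate 2. The macrophage list summed to 26914 to 29313 in loaded and 30336 to 31950 in unloaded DBA/2 macrophages. Lipa had 11.26, 11.16, 11.49 and 11.35 in loaded and 10.25, 9.90, 9.71 and 9.97 in unloaded DBA/2 macrophages. It rose by 1.36 ± 0.27 (adjusted p = 0.00286 by the labels and 2.2e-07 without the arrays). Acp2 had 8.96, 9.02, 8.89 and 8.63 in loaded and 9.88, 9.92, 9.90 and 9.89 in unloaded DBA/2 macrophages. It fell by 1.02 (adjusted p = 9.87e-05 by the labels and 6.85e-07 without the arrays), with the unloaded arrays within 0.04 of each other. Naglu rose by 0.49 ± 0.11 (adjusted p = 0.00725), Tpp1 rose by 0.42 ± 0.10 (adjusted p = 0.00778) and the acid sphingomyelinase Smpd1 fell by 0.41 (SE 0.09, adjusted p = 0.00622), and without the 2 arrays their adjusted p was 0.00334, 0.00289 and 0.00101. Of these calls by the labels, that of Tpp1 was lost in 11 of 16 fits with 1 array left out and those of Naglu and Smpd1 in 7. Hyal1 had 6.19, 5.97, 5.94 and 5.84 in loaded and 5.27, 4.95, 4.69 and 4.75 in unloaded DBA/2 macrophages. These did not overlap, but at 1.07 the difference was called only without the 2 arrays (adjusted p = 1.43e-05, by the labels 0.0216). The same held for Dnase2a (0.55 ± 0.10, adjusted p = 0.000593, by the labels 0.0321), Psap (0.43 ± 0.08, adjusted p = 0.000569, by the labels 0.0137), Ppt1 (−0.48 ± 0.10, adjusted p = 0.00174, by the labels 0.0904) and Ids (−0.45 ± 0.09, adjusted p = 0.00164, by the labels 0.134).

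**Figure D4:**
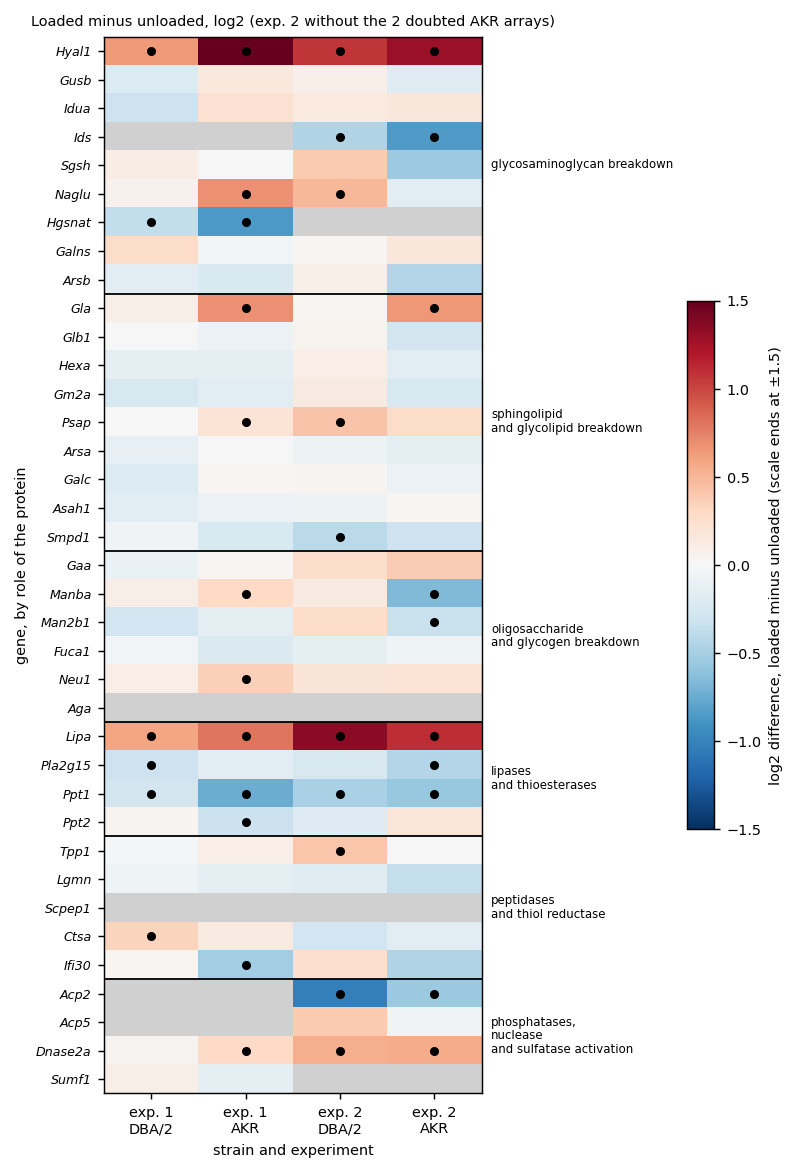
Log2 difference of loaded minus unloaded macrophages for the 37 genes ordered by role, in DBA/2 and AKR cells of experiment 1 and of experiment 2 without the 2 arrays set aside. The colour scale ends at ±1.5, dots mark genes called at an adjusted p below 0.01 and grey marks genes that were not tested. Hyal1 and Lipa are positive and called in all 4 columns, and Ppt1 is negative and called in all 4.

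Acp5, the tartrate-resistant acid phosphatase of osteoclasts and some macrophages, stayed between 5.73 and 6.13 in every array of experiment 1, around the filter value of 5.98, and was not tested there. In experiment 2 it had 4.44, 4.44, 3.86 and 4.23 in loaded and 3.89, 3.87, 3.98 and 3.65 in unloaded DBA/2 macrophages, and 4.26, 3.98, 4.33 and 4.28 in loaded and 4.36, 4.26, 4.44 and 4.31 in unloaded AKR macrophages. These are values around the filter of 4.29, and no contrast of Acp5 was called (by the labels, loading in DBA/2 cells 0.40 ± 0.13, adjusted p = 0.0412, and strain in unloaded cells −0.50, adjusted p = 0.0115, and without the 2 arrays adjusted p = 0.021 and 0.0114).

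Between strains in unloaded macrophages of experiment 2, 1 gene was higher and 3 were lower in DBA/2 than in AKR cells by the labels (all genes, 4.96% higher and 5.69% lower). The 4 calls by the labels became 1 without the low-value filter, 1 without unloaded DBA/2 replicate 2 or unloaded AKR replicate 3, and 2 without unloaded AKR replicate 2 or any other unloaded DBA/2 array. Without the 2 arrays it was 2 higher and 5 lower (all genes, 7% and 8.02%). The marker lists differed between these groups. The macrophage list summed to 30336 to 31950 in unloaded DBA/2 and 22276 to 25173 in unloaded AKR macrophages (8 of 8 markers above the filter), the neutrophil list to 330 to 363 and 736 to 928 (2 of 9 and 3 of 9, with Ltf, Mpo, Ngp and S100a9 below it), and the osteoclast list to 1031 to 1140 and 1566 to 1817 (4 of 8 in both, with Calcr and Ocstamp below it). Their part in the strain differences was not tested. Naglu had 7.24, 7.11, 6.87 and 6.99 in unloaded DBA/2 and 8.08, 8.10, 7.92 and 7.73 in unloaded AKR macrophages. The groups did not overlap, and the strain difference was −0.90 ± 0.11 (adjusted p = 2.17e-05), or −0.86 without the arrays (adjusted p = 5.98e-05). The GM2 activator Gm2a (−0.48, adjusted p = 0.00347) and Tpp1 (−0.40, adjusted p = 0.00936) were also lower and Acp2 higher (0.60, adjusted p = 0.00507), the call of Tpp1 being lost in 12 of 16 fits with 1 array left out. Without the arrays these 3 stayed called (Gm2a −0.58, Tpp1 −0.43 and Acp2 0.49). Ids (0.57, adjusted p = 0.000539) was then higher, and Hyal1 (−0.62, adjusted p = 0.00477) and Smpd1 (−0.42, adjusted p = 0.00197) were lower as well. By the labels these gave 0.76 (adjusted p = 0.0142), −0.97 (adjusted p = 0.0355) and −0.35 (adjusted p = 0.0137).

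In loaded macrophages of experiment 2, 2 genes were higher and 1 lower in DBA/2 than in AKR cells by the labels (all genes, 6.79% and 6.04%), and 5 were higher and 2 lower without the arrays (all genes, 10.3% and 10.3%). The 3 calls by the labels became 1 without the low-value filter, 1 without any single loaded DBA/2 array or loaded AKR replicate 1, 3 or 4, and 5 without either of the 2 arrays alone. Sgsh, the heparan N-sulfatase, had 5.74, 5.997, 5.85 and 5.73 in loaded DBA/2 and 4.56, 5.29, 4.88 and 4.999 in loaded AKR macrophages. The groups did not overlap with or without the 5.29 of the array set aside, and the difference was 0.90 (adjusted p = 0.00482), or 1.02 without it (adjusted p = 0.00018). Man2b1 was higher (0.47, adjusted p = 0.00693) and Smpd1 lower (−0.54, adjusted p = 0.000416) in both fits. Without the arrays Ids (0.97, adjusted p = 2.26e-06), Manba (0.56, adjusted p = 0.000226) and Arsb (0.53, adjusted p = 0.00857) were higher and Hyal1 lower (−0.85, adjusted p = 0.000282). By the labels these gave 0.73 (adjusted p = 0.015), 0.46 (adjusted p = 0.0292), 0.43 (adjusted p = 0.0658) and −0.56 (adjusted p = 0.218). The macrophage list summed to 26914 to 29313 in loaded DBA/2 and 20287 to 24576 in loaded AKR macrophages, the neutrophil list to 335 to 397 and 578 to 1178, and the osteoclast list to 974 to 1250 and 1564 to 1812, and their part was not tested.

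No interaction was called among the 33 genes of experiment 2 by the labels (9 at an unadjusted p below 0.05; all genes, 0.588% positive and 0.406% negative). Without the 2 arrays 2 were positive and none negative (all genes, 3.17% and 2.59%), both of them mannosidases that act on the glycans of glycoproteins. Manba, with 9.59, 9.41, 9.40 and 9.54 in loaded and 9.50, 9.41, 9.21 and 9.30 in unloaded DBA/2 macrophages, had an interaction of 0.79 ± 0.13 (adjusted p = 0.000909), and Man2b1 one of 0.60 ± 0.11 (adjusted p = 0.00268). By the labels these were 0.54 (adjusted p = 0.193) and 0.41 (adjusted p = 0.219). Without the arrays the interaction of Hyal1 was −0.23 with a 95% confidence interval of −0.66 to 0.20 (adjusted p = 0.551), and that of Lipa was 0.24 with an interval of −0.13 to 0.61. By the labels they were 0.41 (adjusted p = 0.721) and 0.83 (adjusted p = 0.317), so that the sign of Hyal1 turned with the 2 arrays. Gla and Naglu also had a larger rise in AKR cells of experiment 1. Without the arrays the interaction of Gla kept its sign in experiment 2 (−0.63, adjusted p = 0.0846, not called). That of Naglu turned on the same probe (0.65, adjusted p = 0.0223, not called), with responses of −0.16 in AKR and 0.49 in DBA/2 macrophages.

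The experiments used separate cultures and can be set side by side. Of 30 genes tested in both, 11 were called for loading in AKR cells in experiment 1 and 8 in experiment 2 without the 2 arrays. Dnase2a, Gla, Hyal1, Lipa and Ppt1 were called in the same direction in both (45.5% and 62.5% of the calls), and Manba in opposite directions. Gla, Hyal1 and Ppt1 were read from the same probe in both experiments, and Dnase2a and Lipa from different probes. The probe was the same for 19 of the 30 genes. By the labels experiment 2 had 0 calls, so none was shared, and the correlation of the differences was r = 0.69 (0.56 over 7173 genes). Without the 2 arrays, the log2 differences of the 30 genes had the same sign for 20, where 64.7% of 7208 genes did. They correlated at r = 0.75, against 0.62 over the 7208 genes. This is a description over genes that share the same arrays and not over replicates. The share of all genes called in both experiments was not counted. For loading in DBA/2 cells, Hyal1, Lipa and Ppt1 were called in the same direction in both experiments without the arrays. By the labels this held for Lipa alone. Without the arrays, 17 of the 30 genes had the same sign (all genes, 64.6%), with r = 0.61 against 0.52 over all genes. Naglu and Tpp1 were lower in unloaded DBA/2 cells of both by either fit. Hyal1 was higher in experiment 1 and, without the arrays, lower in experiment 2 on the same probe. Strain differences in unloaded cells correlated at r = 0.29 without the arrays and 0.11 by the labels (all genes, 0.50 and 0.48). For strain in loaded cells r was 0.55 without the arrays (all genes, 0.62). In loaded cells, without the arrays, Hyal1 was lower and Arsb and Sgsh were higher in DBA/2 cells of both, and Manba went in opposite directions. By the labels Sgsh alone was called in both, and no gene in opposite directions in any contrast. Manba was read from different brightest probes, but the probe common to both arrays fell by 0.54 with loading of AKR cells in experiment 2 (SE 0.10, adjusted p = 0.000442) and rose by 0.30 in experiment 1. No gene was called for the interaction in both experiments (r = 0.17 without the arrays and −0.32 by the labels, against 0.24 and −0.01 over all genes).

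**Figure D5:**
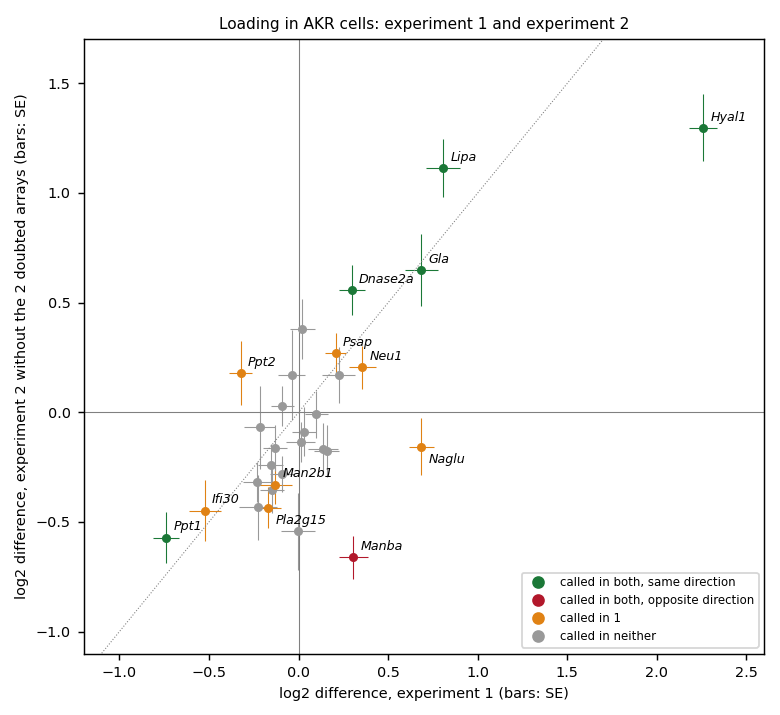
Log2 difference of loaded minus unloaded AKR macrophages in experiment 1 (x axis) and in experiment 2 without the 2 arrays set aside (y axis), 1 point per gene tested in both, with bars of ± SE and colours for the calls. Hyal1 (2.26 and 1.30), Lipa (0.81 and 1.11) and Gla (0.69 and 0.65) lie in the upper right, Ppt1 (−0.74 and −0.57) in the lower left, and Manba (0.30 and −0.66) in the opposite quadrant.

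Of the tested genes, 7 were called in no contrast in which they were tested, in either experiment and with or without the 2 arrays. Hexa, the α-subunit of β-hexosaminidase, gave log2 differences of −0.33 to 0.26, Glb1, the acid β-galactosidase, −0.28 to 0.34, and Gaa, the acid α-glucosidase that degrades glycogen, −0.22 to 0.38. The others were Arsa, the arylsulfatase that acts on sulfatide, Fuca1, the α-fucosidase, Sumf1 and Acp5. A value without a call leaves changes within such ranges unresolved. Aga and Scpep1 stayed below the filter in both experiments and were not tested.

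Some genes have probes that disagree, and for these the text above follows the brightest. For Asah1, the acid ceramidase, the brightest probe gave −0.16 with loading in DBA/2 cells and −0.09 in AKR cells of experiment 1, neither called. Its second probe there fell by 0.87 in DBA/2 cells (adjusted p = 2.94e-06) and by 0.46 in AKR cells (adjusted p = 0.00184). A different second probe on the arrays of experiment 2 fell, without the 2 arrays, by 1.06 in DBA/2 cells (adjusted p = 4.98e-06, by the labels 0.00309) and by 0.88 in AKR cells (adjusted p = 0.000155). In each of these loading contrasts a dimmer Asah1 probe fell while the brightest was not called. The Gusb probes gave −0.18 and −0.58 (adjusted p = 0.00383 for the second) with loading of AKR cells in experiment 2 without the arrays, and both Ifi30 probes fell in AKR cells of experiment 1 (the second by 0.42, adjusted p = 2e-05).

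Other genes of the lysosome, and enzymes related to them, were counted from lists that hold none of the 37. With loading of AKR macrophages in experiment 1, V-ATPase subunits, which acidify the lysosome, were higher for 10 of 14 and lower for none (Tcirg1 by 1.26, Atp6v1c1 by 0.84). In experiment 2 without the 2 arrays they were higher for 10 of 16 and lower for none (Atp6v1c1 by 0.96), and by the labels none was called. In DBA/2 macrophages 3 of 14 rose in experiment 1, and 7 of 16 rose in experiment 2 without the arrays and 1 by the labels, where 6.42%, 10.3% and 4.56% of all genes rose. The cathepsins were split in AKR cells of experiment 1, with 3 higher and 3 lower of 10 (Ctsk by 1.30, Ctsc by −1.15). For mannose 6-phosphate tagging and sorting, 3 of 11 were higher and 1 lower there, led by the receptor Igf2r (1.38). Lysosomal membrane and sterol export proteins had 7 of 17 higher and 3 lower (Clcn7 by 0.74, Laptm4a by −0.77). A list of other lysosomal hydrolases and related enzymes, not all of them mainly lysosomal, had 3 of 10 higher and 4 lower (Hyal2 by 0.69, Smpdl3b by −0.66). Of the 4 MiT/TFE factors only Tfec was called in AKR cells of experiment 1 (−0.40), and Mitf was higher in DBA/2 cells of experiment 2 (0.64). These counts can be read against the 16.2% and 15.1% of all genes called in AKR cells of experiment 1, and against 10.1% and 9.63% in experiment 2.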

How the data were processed

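Bone marrow macrophage RNA was measured on Illumina Ref-8 arrays, 16 per experiment. The deposited values are log2 intensities that the authors quantile-normalised with lumi (version 2.6.0 per the labels), 1 table per experiment. Background correction is not given in the sources used here, and the authors' removal of undetected and polymorphic probes was not applied. Of 24613 and 25697 probes, 14.7% and 6.69% carried no gene name and were used in the fits but not named. Depth does not apply to arrays, and their number limits the precision.

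Each experiment was fitted with limma 3.58.1 in R 4.3.3 (strain, loading and their interaction over its 16 arrays by the labels). Kept probes (13339 and 13732, or 13911 without 2 AKR arrays) had a highest group mean above the median of the table (5.98 and 4.29). P-values were adjusted by Benjamini-Hochberg over all kept probes, and a call was an adjusted p below 0.01. A gene is read from its kept probe of highest mean. Every gene of the set is accounted for. The called genes of greatest difference, up to 6 per direction, are given by name, as are Lipa and Acp5. Values in the files are not linear, so fold changes are 2 to the power of the log2 difference. Marker sums are of linear values. The genes, lists and the exclusion of 2 arrays were chosen with earlier results of these data known. Replicate numbers were not taken to pair the samples, because the correlation of same-numbered deviations was not over 0.1 for every pair (lowest 0.0109 in experiment 1 and −0.295 in experiment 2). By the study's methods each chip held arrays of all 4 groups. Which arrays shared a chip is not given in the sources used here, so the fit has no term for it. In simulated arrays with independent normal errors, the mean estimate of added changes lay close to its set size, and called ones had the right sign. The simulation held no exchanged arrays and no chip effect, and no minimum share of changes called was set. Alternatives were no filter, a filter on the overall mean, the mean over probes, a replicate block, centring, an offset of 50, a trended robust prior and leaving out each array. Promoters and figures were handled with Python 3.11.15, pandas 2.3.3 and matplotlib 3.10.9.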

Additional observations from a re-analysis of the deposited data

Results flagged for a closer look

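In 17 of 260 gene and group combinations of 4 arrays, 1 array lay far from the other 3 for its range, and chance alone flags about 1 in 20. In experiment 1 there were 7. Idua had 7.19 in loaded AKR replicate 4, where the nearest array had 7.39. Arsb had 6.53 in loaded AKR replicate 1, Hgsnat 9.52 in loaded AKR replicate 3, Psap 14.23 in loaded AKR replicate 2, Glb1 9.31 in unloaded AKR replicate 2, and Arsa 10.24 and Pla2g15 12.60 in unloaded DBA/2 replicate 4.

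In experiment 2 there were 10, of which 5 lie in the 2 arrays set aside. These are Ctsa (9.86) and Ifi30 (8.46) in loaded AKR replicate 2, and Manba (8.95), Ppt1 (8.06) and Psap (14.27) in unloaded AKR replicate 1. The others are Neu1 (10.19), Psap (13.90) and Tpp1 (8.63) in loaded DBA/2 replicates 3, 2 and 1, and Idua (8.48) and Ppt1 (8.53) in unloaded DBA/2 replicates 1 and 2. Psap takes few distinct values near the top of the arrays (9 over the 16 arrays of experiment 2).

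The response to loading differed between the strains for 9 genes of experiment 1 (limma interaction, DBA/2 minus AKR, adjusted p below 0.01). The log2 differences were −1.62 for Hyal1, −0.62 for Naglu, −0.60 for Gla, −0.53 for Idua and −0.37 for Gusb, and 0.55 for Ifi30, 0.49 for Hgsnat, 0.47 for Ppt1 and 0.37 for Ppt2.

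Without the 2 arrays of experiment 2, called differences in 3 cases had opposite signs in the experiments, and by the labels there was no such case. Manba differed by 0.30 with loading of AKR cells in experiment 1 and by −0.66 in experiment 2 (by the labels −0.40, adjusted p = 0.36, with overlapping groups). Between loaded DBA/2 and loaded AKR cells, Manba differed by −0.30 and 0.56 (by the labels 0.46, adjusted p = 0.0292). Between unloaded DBA/2 and unloaded AKR cells, Hyal1 differed by 0.35 and −0.62 (by the labels −0.97, adjusted p = 0.0355). Without the 2 arrays the groups did not overlap within either experiment in these cases. The difference between experiments was not tested.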

How the results depend on the processing

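Numbers of called genes of the set depended mostly on the 2 AKR arrays of experiment 2. Without them the count was 10 in place of 0 for loading in AKR cells, 10 in place of 5 for loading in DBA/2 cells, 7 in place of 4 for strain in unloaded cells, 7 in place of 3 for strain in loaded cells and 2 in place of 0 for the interaction. Without a filter on low values these counts in experiment 2 were 2 for loading in DBA/2 cells, 1 for strain in unloaded cells and 1 for strain in loaded cells, where more probes are adjusted for. With a replicate block the interaction in experiment 2 gave 1 call, and the other 9 counts stayed within 1.5 times. The numbers were not taken as pairs, since not every pair correlated above 0.1. Yet 11 of 16 arrays of experiment 1 and 9 of 16 of experiment 2 correlated best with an array of their own number, a hint of a shared factor. The design does hold such a factor, the chip, which carried arrays of all 4 groups. Which arrays shared a chip is not given in the sources used here, and the replicate block does not stand for it. Leaving out 1 array at a time gave, in experiment 1, 10 to 13 calls for loading in AKR cells, 3 to 7 for loading in DBA/2 cells (3 without unloaded DBA/2 replicate 3), 9 to 11 for strain in unloaded cells, 12 to 16 for strain in loaded cells and 6 to 9 for the interaction. In experiment 2 it gave 0 to 0, 1 to 8, 1 to 6, 1 to 5 and 0 to 0 calls in the same order. Centring, the offset, the trended robust prior and the filter on the overall mean moved no count by more than 1.5 times and lost none of the 63 single-gene calls. The mean over probes reversed Ctsa for loading in DBA/2 cells of experiment 1 (−0.092, against 0.34) and lost 4 calls, the interactions of Gusb, Idua and Ppt2 and the strain difference of Ppt2 in loaded cells. The replicate block lost 1 call, the interaction of Gusb. No filter lost 14, and leaving out 1 array lost 143 of 1008. The weakest were the interactions of Gusb (lost in 12 of 16) and Hgsnat (10 of 16) in experiment 1 and Tpp1 in experiment 2 (12 of 16 for strain in unloaded cells). The causes were not tested. Signal near the filter limits Acp5, Fuca1, Aga, Scpep1 and Sumf1, and the few distinct values at the top of the arrays limit Psap. In experiment 2 the strain differences of Sgsh and Hyal1 include low values as well. Means by the labels were 4.93 for Sgsh in loaded AKR and 4.92 for Hyal1 in unloaded DBA/2 macrophages (filter, 4.29).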
